A study of Mus musculus with 16 samples.

Results

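Prostaglandins act through surface receptors and are carried across membranes and degraded by a small set of proteins, and the RNA of 10 such genes was followed in whole dorsal skin of male and female mice with and without ultraviolet B (UVB) irradiation. The 10 genes, grouped by their role, are the 4 prostaglandin E2 receptor genes *Ptger1*, *Ptger2*, *Ptger3* and *Ptger4*, the prostaglandin F receptor gene *Ptgfr*, the prostacyclin receptor gene *Ptgir*, the transporter genes *Slco2a1* and *Abcc4*, and the breakdown enzyme genes *Hpgd* and *Ptgr1*. All 10 were found among the 55359 gene identifiers of the count tables, and all 10 passed the filter on low counts in each comparison. The 16 libraries came from 4 irradiated and 4 no-UVB mice of each sex. All mice were wild-type C57Bl/6 animals aged 8 weeks (C57Bl/6N in the text of the study), and the labels give the hair cycle stage of each skin sample as telogen, the resting phase. Irradiated mice received UVB 3 times and were sampled on day 5, at 6 h from the final exposure, while the control mice received none. The labels number the libraries of a group without saying that each came from its own animal, so each was taken as 1 mouse, and p-values measure the spread between these libraries.

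Prostaglandin E2 is made in skin by keratinocytes, fibroblasts and immune cells, takes part in inflammation and sunburn, and reaches melanocytes of the epidermis. The receptors EP2 and EP4, encoded by *Ptger2* and *Ptger4*, raise cyclic AMP in the receiving cell, EP3 mostly lowers it, and EP1 acts mainly through calcium. The signal ends when the transporter encoded by *Slco2a1* takes prostaglandin into the cell, the dehydrogenase encoded by *Hpgd* oxidises it and prostaglandin reductases such as that encoded by *Ptgr1* reduce the product, whereas the pump encoded by *Abcc4* moves prostaglandins and cyclic nucleotides out of the cell.

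*Ptger4*, *Abcc4* and *Ptgr1* were the 3 members that passed the test for a response to UVB in both sexes, and for this reason the 250 bases before their transcription starts are shown. They are RefSeq sequences on GRCm38.p6, another build than the GRCm39 of the counts, and all 3 lie on the minus strand. The *Ptger4* sequence is chr15:5244188-5244437 with a GC content of 66.8%, that of *Abcc4* is chr14:118706220-118706469 with 72%, and that of *Ptgr1* is chr4:58987079-58987328 with 46.4%. Capitals mark a match to the antioxidant response element (TGACNNNGC, which may lie on either strand), the element bound by the stress factor NRF2.
Ptger4: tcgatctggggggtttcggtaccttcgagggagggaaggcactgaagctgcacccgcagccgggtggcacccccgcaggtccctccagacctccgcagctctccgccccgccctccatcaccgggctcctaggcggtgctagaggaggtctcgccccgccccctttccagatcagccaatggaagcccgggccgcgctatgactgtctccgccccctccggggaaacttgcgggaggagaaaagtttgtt
Abcc4: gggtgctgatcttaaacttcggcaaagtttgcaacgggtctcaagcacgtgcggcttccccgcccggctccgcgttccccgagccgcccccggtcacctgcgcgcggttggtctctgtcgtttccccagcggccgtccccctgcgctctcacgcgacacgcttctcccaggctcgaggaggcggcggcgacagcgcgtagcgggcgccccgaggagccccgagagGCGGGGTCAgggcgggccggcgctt
Ptgr1: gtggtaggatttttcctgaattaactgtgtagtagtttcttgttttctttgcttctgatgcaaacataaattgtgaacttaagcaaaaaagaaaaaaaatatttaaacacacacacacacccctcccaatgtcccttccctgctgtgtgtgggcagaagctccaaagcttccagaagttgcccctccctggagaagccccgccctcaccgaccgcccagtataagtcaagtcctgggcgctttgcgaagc

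In the *Abcc4* sequence the match lies on the reverse strand and appears on the printed strand as GCGGGGTCA, with its first base at -25 from the start. Of the 10 members, 9 had a RefSeq window of 250 bases before to 50 after a start, which made 10 windows because *Abcc4* had 2. The other *Abcc4* window held the element as TGACTCTGC with its first base at -23, and the *Ptgir* window held it as TGACTGTGC at -221, while the windows of the other 7 members held no such letters. The AP-1 element (TGANTCA) and the cyclic AMP response element (TGACGTNA), both searched on both strands, were in none of the 10 windows. Over all 32851 windows in the RefSeq table, 12.4% held the antioxidant response element, 7.81% the AP-1 element and 2.93% the cyclic AMP response element. None of the motif matches was tested for use in these mice.

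The libraries held 16495776 to 33404831 reads on genes (median 21767339). *Xist* was at 1018 to 1209 CPM (read counts divided by the library size as scaled by TMM) in females and 1.30 to 5.13 in males, as the labels of sex require. Basal keratinocyte marker genes summed to 5955 to 8704 CPM in control males and 8208 to 11570 in irradiated males. The sums were 5005 to 7860 in control females and 4494 to 6955 in irradiated females, with all 5 above 0. Of the 5, 2 rose and 1 fell in males, and 1 rose and 1 fell in females. In control and irradiated males the mean of *Krt14* was 1614 and 4295 CPM and that of *Krt15* 1724 and 714.7 CPM. The 5 suprabasal keratinocyte genes, of which 5 rose in males and 3 in females, summed to 7001 to 10230 CPM in control males and 18080 to 25120 in irradiated males, and to 6311 to 9075 CPM in control females and 10530 to 14010 in irradiated females. The 4 keratin genes of stressed keratinocytes, of which 4 rose in males and 3 in females, summed to 651 to 834.9 CPM in control males and 3333 to 6156 in irradiated males, and to 528.6 to 1017 CPM in control females and 843.1 to 1507 in irradiated females. Over all mice, skeletal muscle marker genes summed to 8051 to 18100 CPM, with all 4 above 0. The 5 fibroblast marker genes summed to 59360 to 65270 CPM in control males and 19070 to 27500 CPM in irradiated males, and to 13810 to 14040 CPM in control females and 9091 to 13680 CPM in irradiated females. The collagen genes *Col1a1* and *Col1a2* carried this sum. In males they fell by 1.66 and 1.57 on the log2 scale, whereas *Dcn* fell by 0.28, *Pdgfra* by 0.19 and *Lum*, at -0.15, did not pass (edgeR adjusted p = 8.37e-06, 1.46e-05, 0.0705, 0.017 and 0.324). In females *Lum* rose by 0.43, *Pdgfra* fell by 0.37 and the other 3 did not pass (edgeR adjusted p = 0.0246 and 0.0903). Neutrophil marker genes summed to 54.1 to 160.7 CPM in UVB-irradiated males and 19.6 to 29.1 in UVB-irradiated females, against 10.2 to 16.3 over all no-UVB mice. Most of the gap between the irradiated sexes was in *S100a8* (mean 26.7 CPM in males, 2.42 in females) and *S100a9* (39.8 and 8.26). The means of *Cxcr2* (5.74 and 3.48 CPM), *Csf3r* (9.72 and 7.15) and *Mmp8* (1.96 and 0.337) were also higher in irradiated males. *Retnlg* was at 1.48 and 1.92 CPM and *Ly6g* at 0 in both. The T cell marker genes summed to 20.01 to 28.4 CPM in UVB-irradiated males against 37.04 to 48.79 in no-UVB males, with 5 of 5 falling, and to 36.5 to 48.8 CPM in irradiated females against 47.1 to 81.8 in control females, with 3 of 5 falling. Macrophage and monocyte markers summed to 1447 to 1792 CPM in control males and 1114 to 1508 in irradiated males (5 of 10 fell and 2 rose), and Langerhans cell markers to 1324 to 1599 and 919.9 to 1129 CPM (3 of 4 fell and 1 rose), while in females 1 of 10 and 0 of 4 fell. Of 4 skeletal muscle markers, 4 fell in males and 0 in females, and of 6 mast cell markers 3 rose in males and 5 in females. Of 4 melanocyte markers 3 rose in males and 0 in females, of 4 smooth muscle and pericyte markers 2 fell in each sex and 1 rose in males, and of 5 endothelial cell markers none passed in either sex. The part of these changes in cell markers in the results on prostaglandin genes was not tested. In whole skin, fewer cells of a type and less RNA per cell cannot be told apart.

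The first question was how UVB changed the 10 genes within each sex. In males *Ptgr1* rose and *Ptger3*, *Ptger4*, *Ptgfr* and *Abcc4* fell, and the other 5 did not pass the test, which was edgeR's quasi-likelihood test at a Benjamini-Hochberg adjusted p under 0.1. In females *Ptgr1* rose, *Ptger4* and *Abcc4* fell and the other 7 did not pass. These counts of 5 in males and 3 in females stand beside 59.6% of all 16535 genes tested in males (29% higher, 30.5% lower) and 23.4% of all 16883 in females (12.8% higher, 10.6% lower), so that the members' share was not far from that of genes at large in either sex. No member passed the test with a log2 fold change past 1, which 7.39% of genes did in males and 2.71% in females. The median log2 fold change of the 10 members was -0.31 in males and -0.24 in females, where that of all genes tested was -0.02 and 0.00. With upper quartile scaling the calls of all genes turned from 4802 higher of 9853 to 3880 higher of 10010 in males and from 2162 higher of 3949 to 1737 higher of 3894 in females.

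**Figure D1:**
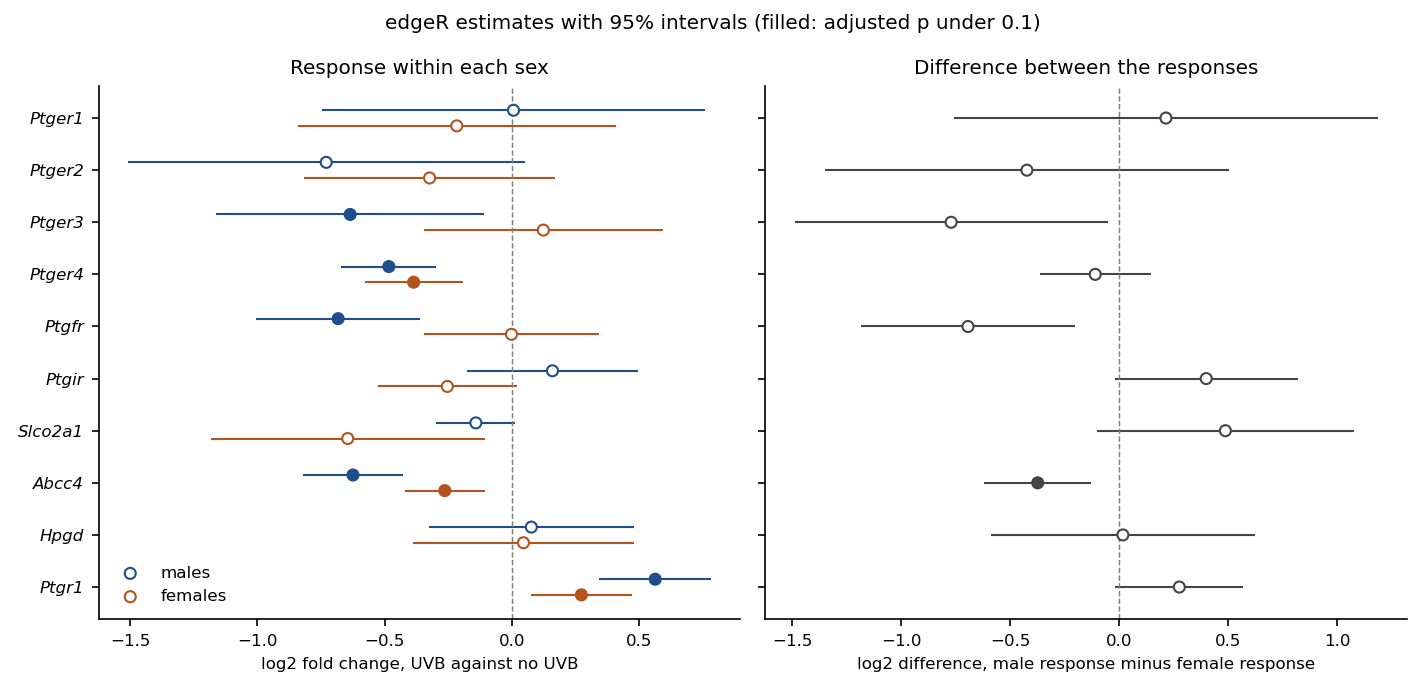
Fitted log2 fold change of each member for UVB against no UVB in males and in females (left) and the male response minus the female response (right), with 95% intervals and filled points where the adjusted p of edgeR's quasi-likelihood test was under 0.1. Filled points lie left of 0 for *Ptger3*, *Ptger4*, *Ptgfr* and *Abcc4* and right of 0 for *Ptgr1* in males, and in the right panel the *Abcc4* point at -0.37 is filled.

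Among the receptor genes 3 of 6 fell in males, 1 of 6 fell in females, and in neither sex did any rise, beside 30.5% of all genes lower in males and 10.6% in females. *Ptger4* (chr15:5236142-5273673, minus strand, GRCm39 here and for the genes below) encodes EP4. In males it was at 23.4, 24.5, 27.6 and 23.0 CPM without UVB and at 17.7, 18.9, 15.6 and 17.3 CPM after UVB. In females it was at 26.5, 26.9, 24.0 and 22.6 CPM without UVB and at 18.8, 17.2, 20.8 and 19.3 CPM after UVB. In both sexes every irradiated mouse lay below every control mouse of its sex. On the log2 scale the fold change was -0.48 (SE 0.0851) in males and -0.39 (SE 0.0872) in females, with adjusted p of 0.000677 and 0.0148 by edgeR's quasi-likelihood test. The male response minus the female response was -0.11 on the log2 scale, with a 95% interval of -0.36 to 0.14 (edgeR adjusted p = 0.64). Both falls passed the test when any of the 8 mice of the sex was left out.

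*Ptger3* (chr3:157272492-157352099, plus strand), which encodes EP3, was at 55.3, 63.3, 57.4 and 70.8 CPM in no-UVB males and at 28.6, 37.3, 30.4 and 60.7 CPM in UVB-irradiated males. Of the irradiated males, 3 lay below all controls and replicate 4 lay among them. Males had a log2 fold change of -0.64 (SE 0.229, edgeR adjusted p = 0.0466). Of 4 adipocyte markers, 2 also fell in males (median of the 4 at -0.56) and 0 passed in females (median 0.24). Their sum was 648 to 968.3 CPM in control males and 491.1 to 778.1 CPM in irradiated males, where replicate 4 was again the highest, and 648.3 to 1131 and 712.2 to 1365 CPM in control and irradiated females. Skeletal muscle markers (4 of 4, median -0.64) and T cell markers (5 of 5, median -0.79) fell in males as well. In females 0 of 4 muscle and 3 of 5 T cell markers fell (medians 0.10 and -0.50). The part of these markers in the *Ptger3* result was not tested. Without UVB-irradiated male replicate 4 the *Ptger3* value in males was -0.92 (edgeR adjusted p = 0.000114). The call was lost when UVB-irradiated male replicate 1, 2 or 3 or no-UVB male replicate 2 or 4 was left out, with edgeR adjusted p between 0.1002 and 0.1077 and log2 fold changes of -0.50 to -0.61. Females were at 36.6, 44.2, 28.8 and 57.7 CPM without UVB and at 46.8, 57.5, 38.8 and 37.6 CPM after UVB, so that the groups overlapped over most of their range. Their log2 fold change was 0.12 with a 95% interval of -0.35 to 0.59 (edgeR adjusted p = 0.737). At -0.77 on the log2 scale, the male minus female response did not pass (95% interval -1.49 to -0.05, edgeR adjusted p = 0.209), and without UVB-irradiated male replicate 4 it was -1.06 (edgeR adjusted p = 0.0552).

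*Ptger2* and *Ptger1* were the 2 members with the fewest reads. *Ptger2* (chr14:45225652-45241277, plus strand), the gene of EP2, was at 5.08, 4.97, 1.91 and 2.24 CPM in no-UVB males and at 2.68, 1.28, 2.17 and 2.14 CPM in UVB-irradiated males. The 2 higher control males stood apart from the rest of the males. In males the log2 fold change was -0.73 with a 95% interval of -1.51 to 0.05 (edgeR adjusted p = 0.106). It passed with UVB-irradiated male replicate 1 (edgeR adjusted p = 0.0975), no-UVB male replicate 3 (0.0282) or no-UVB male replicate 4 (0.0591) left out, with values of -0.90, -0.92 and -0.89. In females *Ptger2* was at 2.36 to 4.201 CPM without UVB and 2.01 to 3.39 CPM after UVB (log2 fold change -0.32, 95% interval -0.82 to 0.17, edgeR adjusted p = 0.362).

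*Ptger1* (chr8:84393264-84399384, plus strand), the gene of EP1, had 10 to 50 reads per mouse, or 0.521 to 1.91 CPM. The log2 fold change was 0.01 in males (95% interval -0.74 to 0.76) and -0.22 in females (-0.84 to 0.41), with edgeR adjusted p of 0.99 and 0.648. A change within these limits could not be told from none in these mice.

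*Ptgfr* (chr3:151502139-151543267, minus strand) encodes the receptor of prostaglandin F2 alpha, which signals through the Gq protein. In males it was at 45.7, 55.3, 48.0 and 49.8 CPM without UVB and at 23.4, 25.9, 36.0 and 37.0 CPM after UVB. Every irradiated male was below every control male. In females it was at 53.9, 48.0, 31.9 and 45.3 CPM without UVB and at 51.3, 38.6, 39.7 and 48.3 CPM after UVB, with overlapping groups. *Ptgfr* thus fell in males, by 0.68 on the log2 scale (SE 0.144, edgeR adjusted p = 0.0030), and this call held with any of the 8 males left out. Females had a log2 fold change of -0.0019 (95% interval -0.35 to 0.34, edgeR adjusted p = 0.995). Between the responses the difference was -0.69 (95% interval -1.19 to -0.20) and missed the threshold at an edgeR adjusted p of 0.11. On all 16 mice it passed with DESeq2's Wald test (-0.66, DESeq2 adjusted p = 0.0646) and at least 10 counts in every mouse (-0.69, edgeR adjusted p = 0.0986). It did so too with the replicate block (-0.73, edgeR adjusted p = 0.074), and under no other alternative that kept all mice. It passed when UVB-irradiated female replicate 3 (0.0963), no-UVB female replicate 1 (0.0844) or UVB-irradiated male replicate 3 (0.0976) or 4 (0.0773) was left out, with values of -0.73, -0.80, -0.78 and -0.80, where the numbers in brackets are edgeR adjusted p. Of the fibroblast markers given above, *Col1a1* and *Col1a2* fell by more than *Ptgfr* in males and the other 3 had smaller values, and the part of fibroblasts in the *Ptgfr* value was not tested.

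*Ptgir* (chr7:16640415-16644848, plus strand), the receptor of prostacyclin, was the 1 receptor gene that differed between the sexes without UVB. It was at 4.52, 5.11, 7.02 and 7.05 CPM in no-UVB males and at 9.74, 9.19, 10.5 and 10.3 CPM in no-UVB females, so that each control male lay below each control female. After UVB it was at 5.98 to 6.83 CPM in males and at 6.64, 9.74, 8.57 and 8.14 CPM in females. Within a sex the groups overlapped, and neither the male log2 fold change of 0.16 (95% interval -0.18 to 0.49) nor the female one of -0.25 (-0.53 to 0.02) passed, with edgeR adjusted p of 0.405 and 0.198. Without UVB-irradiated female replicate 2 the female value was -0.35 and passed (edgeR adjusted p = 0.0853).

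**Figure D2:**
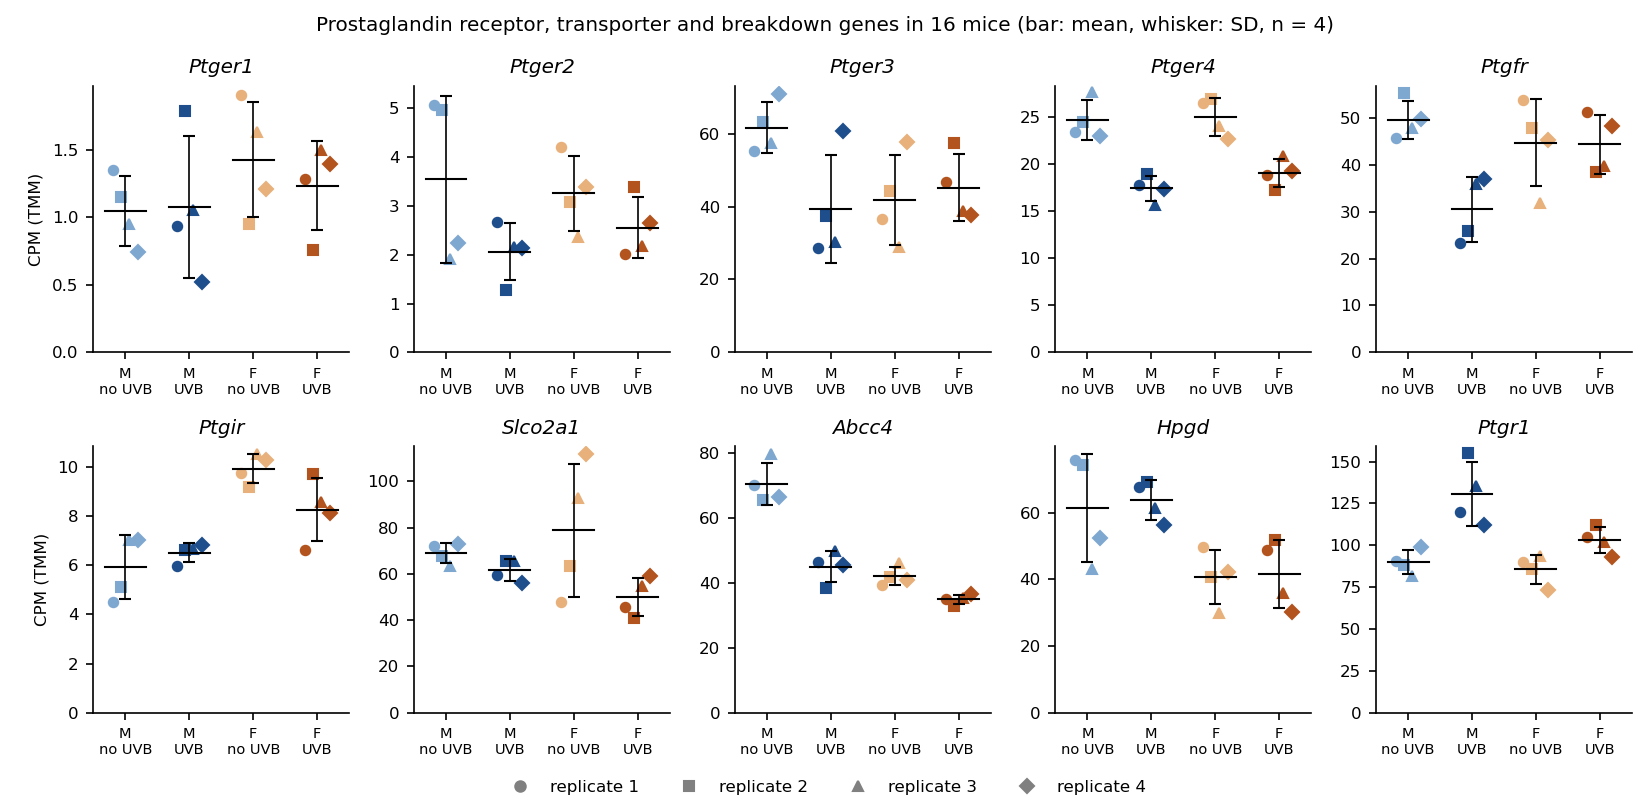
TMM-scaled counts (CPM) of the 10 members in each of the 16 mice, by sex and UVB, with the mean and SD of each group of 4. The irradiated mice lie below the controls of their sex for *Ptger4* and *Abcc4*, and no-UVB males, at 65.6 to 79.8 CPM, hold the highest *Abcc4* values.

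Of the 2 transporter genes, *Abcc4* fell in both sexes. *Abcc4* (chr14:118720103-118943924, minus strand) was at 70.2, 65.6, 79.8 and 66.5 CPM in no-UVB males and at 46.5, 38.3, 49.9 and 45.5 CPM in UVB-irradiated males. In females it was at 39.4, 42.0, 46.1 and 41.0 CPM without UVB and at 34.9, 32.9, 35.4 and 36.5 CPM after UVB. The irradiated groups lay wholly below their controls, and in each condition the males lay wholly above the females. The log2 fold change was -0.62 in males (SE 0.0892, edgeR adjusted p = 0.000165) and -0.26 in females (SE 0.0708, edgeR adjusted p = 0.031), and both calls held with any 1 mouse left out.

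*Abcc4* was also the 1 member whose response differed between the sexes by the interaction of UVB and sex. The male response minus the female response was -0.37 (SE 0.116, 95% interval -0.62 to -0.13, edgeR adjusted p = 0.0868). Over all 17406 genes tested, 7% passed this test, with 2.75% higher and 4.25% lower in males, and 1.22% passed with a log2 difference past 1, which no member did. DESeq2's size factors turned these calls from 478 higher of 1218 to 687 higher of 1328. The *Abcc4* call held without 4 of the 16 mice left out in turn, namely UVB-irradiated female replicate 2, no-UVB female replicate 3, UVB-irradiated male replicate 3 and no-UVB male replicate 4, and was lost without any of the other 12, with values from -0.31 to -0.41 and edgeR adjusted p from 0.107 to 0.168. It was also lost with DESeq2's size factors, at -0.34 with an edgeR adjusted p of 0.107, and with every gene of at least 1 count (edgeR adjusted p = 0.143).

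*Slco2a1* (chr9:102865911-102973201, plus strand), the gene of the prostaglandin uptake transporter, was at 71.9, 67.7, 63.6 and 73.1 CPM in no-UVB males and at 59.3, 65.5, 65.7 and 56.1 CPM in UVB-irradiated males. Males had a log2 fold change of -0.14 (95% interval -0.30 to 0.01, edgeR adjusted p = 0.114). This passed when UVB-irradiated male replicate 2 or 3 or no-UVB male replicate 3 was left out, with values of -0.17, -0.18 and -0.16 and edgeR adjusted p of 0.0882, 0.0821 and 0.0817. It also passed with upper quartile scaling, at -0.22 (edgeR adjusted p = 0.0179). In no-UVB females it was at 47.8, 63.2, 92.7 and 111.6 CPM, with an SD of 28.7, and in UVB-irradiated females at 45.8, 41.1, 54.8 and 59.1 CPM. The 2 highest control females carried the difference, and the groups overlapped. Their log2 fold change was -0.65 (95% interval -1.18 to -0.11) and missed the threshold at an edgeR adjusted p of 0.101. With all mice kept it passed with DESeq2's size factors (edgeR adjusted p = 0.0982), upper quartile scaling (0.0814) and at least 10 counts in every mouse (0.0842). It also passed with the replicate block (0.0379), all 16 mice in 1 fit (0.0271) and DESeq2's Wald test (DESeq2 adjusted p = 0.035). The remaining alternatives with all mice left it short. Without no-UVB female replicate 1 it was -0.82 (edgeR adjusted p = 0.0231), and without no-UVB female replicate 4 it was -0.44 (edgeR adjusted p = 0.242).

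Of the 2 breakdown genes, *Ptgr1* passed the test in both sexes and *Hpgd* in neither. *Ptgr1* (chr4:58965203-58987131, minus strand), which encodes prostaglandin reductase 1, was at 90.5, 88.3, 81.6 and 98.9 CPM in no-UVB males and at 119.8, 155.1, 135.7 and 112 CPM in UVB-irradiated males. Every irradiated male was above every control male. In females it was at 90.0, 85.8, 93.6 and 73.6 CPM without UVB and at 104.8, 111.9, 102.1 and 93.2 CPM after UVB, where the lowest irradiated female was just under the highest control. The rise on the log2 scale was 0.56 in males (SE 0.0995, edgeR adjusted p = 0.000788) and 0.27 in females (SE 0.089, edgeR adjusted p = 0.0645). The male call held with any of the 8 males left out. The female call was lost without UVB-irradiated replicate 1, 2 or 3 or no-UVB replicate 2 or 4, with values of 0.20 to 0.28 and edgeR adjusted p of 0.115 to 0.158. Between the responses the difference was 0.28 (95% interval -0.02 to 0.57, edgeR adjusted p = 0.269). The suprabasal and stressed keratinocyte markers given above moved with *Ptgr1*, and their part in its rise was not tested.

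*Hpgd* (chr8:56747543-56774082, plus strand), the dehydrogenase gene of the first inactivation step, was at 75.8, 74.2, 43.2 and 52.4 CPM in no-UVB males and at 67.9, 69.4, 61.6 and 56.2 CPM in UVB-irradiated males. Females were at 49.7, 40.7, 29.99 and 42.2 CPM without UVB and at 48.8, 51.7, 35.8 and 30.2 CPM after UVB. Groups overlapped within each sex. Fitted log2 fold changes were 0.08 in males (95% interval -0.33 to 0.48, edgeR adjusted p = 0.743) and 0.05 in females (-0.39 to 0.48, edgeR adjusted p = 0.902).

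The next question was where males and females differed at the same treatment. Without UVB, *Abcc4* and *Hpgd* were higher and *Ptgir* lower in males, which makes 3 of 10 members beside 11.8% of all 17406 genes tested (7.21% higher, 4.58% lower). After UVB, *Abcc4*, *Hpgd* and *Ptgr1* were higher and *Ptgfr* and *Ptgir* lower in males, which makes 5 of 10 members beside 25.2% of genes (12.8% higher, 12.5% lower). With a log2 difference past 1 the background was 1.91% and 2.84%, and no member passed. Cell markers differed in the same contrasts. Without UVB, 3 of 5 fibroblast, 2 of 4 skeletal muscle and 1 of 4 smooth muscle and pericyte markers were higher in males. Lower in males were 3 of 6 mast cell, 2 of 5 T cell, 2 of 4 melanocyte, 2 of 10 macrophage and monocyte and 1 of 5 endothelial cell markers. After UVB, 4 of 4 adipocyte (median -0.84), 5 of 6 mast cell, 4 of 5 T cell and 3 of 4 Langerhans cell markers were lower in males. So were 1 of 10 macrophage and monocyte, 1 of 5 endothelial cell, 1 of 4 smooth muscle and pericyte and 1 of 4 skeletal muscle markers. Higher in males were 3 of 4 stressed, 3 of 5 suprabasal and 3 of 5 basal keratinocyte markers, 4 of 6 neutrophil markers and 2 of 5 fibroblast markers. Their part in the differences of the members was not tested. Upper quartile scaling turned the calls of all genes after UVB from 2222 higher of 4391 to 1659 higher of 4395.

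*Abcc4* was 1.67-fold higher in males without UVB (log2 0.74, SE 0.0816, edgeR adjusted p = 2.38e-05) and 1.29-fold higher after UVB (log2 0.37, SE 0.0825, edgeR adjusted p = 0.00767). Both values passed with any of the 16 mice left out. *Ptgir* was at 0.595 times the female level in males without UVB (log2 -0.75, SE 0.14, edgeR adjusted p = 0.00334), which passed with any of the 16 mice left out, and at 0.784 times after UVB (log2 -0.35, edgeR adjusted p = 0.0953). The second *Ptgir* value held in 5 of 16 fits without 1 mouse and reached an edgeR adjusted p of 0.257 without UVB-irradiated female replicate 2, where it was -0.26. It was also lost with DESeq2's size factors (-0.33, edgeR adjusted p = 0.114) and with every gene of at least 1 count (-0.36, edgeR adjusted p = 0.134).

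*Hpgd* was 1.51-fold higher in males without UVB (log2 0.60, edgeR adjusted p = 0.0878) and 1.53-fold higher after UVB (log2 0.61, edgeR adjusted p = 0.048). In the UVB-irradiated mice the males at 56.2 to 69.4 CPM lay wholly above the females at 30.2 to 51.7 CPM, whereas the no-UVB groups overlapped. The no-UVB value held in 6 of 16 fits without 1 mouse, and without no-UVB male replicate 2 it was 0.49 (edgeR adjusted p = 0.234). It was lost with upper quartile scaling (0.57, edgeR adjusted p = 0.106), and with every gene of at least 1 count both *Hpgd* values were lost (edgeR adjusted p = 0.239 without UVB and 0.144 after UVB). The value after UVB was lost without UVB-irradiated female replicate 4 (0.49, edgeR adjusted p = 0.115), UVB-irradiated male replicate 1 (0.58, 0.112) or UVB-irradiated male replicate 2 (0.57, 0.109).

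*Ptgr1* and *Ptgfr* differed between the sexes after UVB. *Ptgr1* was 1.27-fold higher in irradiated males (log2 0.34, SE 0.0983, edgeR adjusted p = 0.0253), where its no-UVB difference was 0.07 (95% interval -0.14 to 0.27). *Ptgfr* was at 0.687 times the female level in irradiated males (log2 -0.54, SE 0.166, edgeR adjusted p = 0.035), where its no-UVB difference was 0.15 (-0.19 to 0.50). The *Ptgfr* call was lost without UVB-irradiated female replicate 1 (-0.47, edgeR adjusted p = 0.105) or UVB-irradiated male replicate 1 (-0.43, edgeR adjusted p = 0.11). *Ptger1*, *Ptger2*, *Ptger3*, *Ptger4* and *Slco2a1* passed in neither condition, with log2 differences of -0.44 to 0.56 without UVB and -0.29 to 0.30 after UVB. Of these, *Ptger3* passed without UVB when no-UVB female replicate 4 (0.74, edgeR adjusted p = 0.079) or UVB-irradiated male replicate 4 (0.56, edgeR adjusted p = 0.0844) was left out.

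Levels can be compared between genes only per length, for which CPM was divided by the kilobases of merged exons. Over the 16 mice the mean was highest for *Ptgr1*, at 35.9 CPM per kb, followed by *Hpgd* at 16.8, *Ptger3* at 7.46, *Ptgfr* at 6.25, *Abcc4* at 5.58 and *Slco2a1* at 4.75 CPM per kb. *Ptger4* followed at 3.23, *Ptgir* at 2.29, *Ptger2* at 0.55 and *Ptger1* at 0.217 CPM per kb. Neighbours in this order whose ranges did not overlap were *Ptgr1* (25.8 to 54.4) above *Hpgd* (9.71 to 24.5) and *Ptgir* (1.35 to 3.15) above *Ptger2* (0.246 to 0.978). *Hpgd* was above *Ptger3* within each of the 16 mice although their ranges overlapped. *Ptger3*, *Ptgfr*, *Abcc4* and *Slco2a1* did not separate, since each was above the next in 9 to 12 of 16 mice. *Ptger4* was below *Slco2a1* in 15 of 16 mice. Among the prostaglandin E2 receptor genes the means came in the order *Ptger3*, *Ptger4*, *Ptger2* and *Ptger1*. They were 8.22, 3.73, 0.655 and 0.225 CPM per kb in the 8 no-UVB mice. In the 8 irradiated mice they were 6.70, 2.74, 0.445 and 0.21 CPM per kb. *Ptger3* (4.53 to 11.2) did not overlap *Ptger4* (2.34 to 4.15), and *Ptger2* was above *Ptger1* in 15 of 16 mice. The length used was that of all annotated exons, whichever transcripts the skin held, which limits comparisons between genes.

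**Figure D3:**
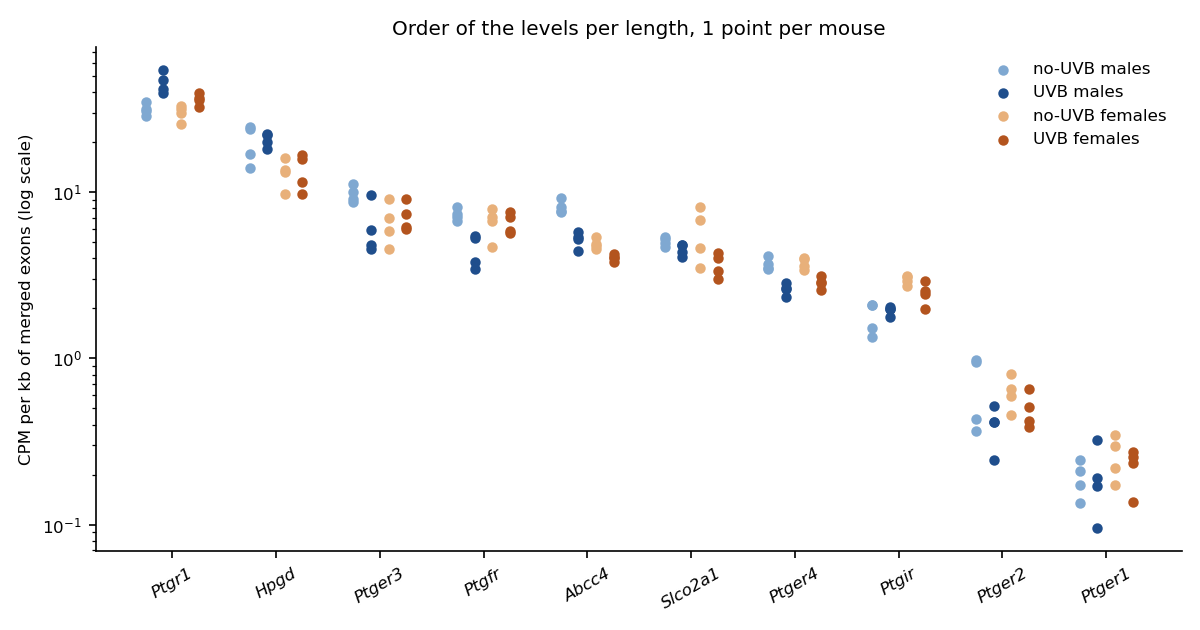
Level of each member in CPM per kilobase of merged exons on a log axis, with 1 point per mouse, coloured by group, in the order of the mean over 16 mice. *Ptgr1* at 25.8 to 54.4 lies above all other members, and *Ptger2* and *Ptger1* lie below 1 CPM per kb in every mouse.

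The other genes of the pathway were read from a list of 17 prostanoid genes, of which *Ptgdr2* was not tested in males for its low count. In males 6 rose and 6 fell of 16, beside 59.6% of all genes tested, and in females 3 rose and 4 fell of 17, beside 23.4%. Of the synthesis genes, *Ptgs2*, the inducible cyclooxygenase, was at 3.22 to 4.97 CPM in control males and 6.47 to 10.5 CPM in irradiated males, with a log2 fold change of 1.09 (SE 0.181, edgeR adjusted p = 0.000469). Female values were 1.13 to 2.30 CPM without UVB and 2.16 to 6.00 CPM after UVB, with a log2 fold change of 1.01 (SE 0.337, edgeR adjusted p = 0.0705). The female value was lost without UVB-irradiated female replicate 3 (0.69) or 4 (0.95) or no-UVB female replicate 1 (0.84) or 3 (1.01), with edgeR adjusted p of 0.129 to 0.179. *Ptgs1*, the constitutive cyclooxygenase, rose in males (log2 0.40, edgeR adjusted p = 0.0287) and was at 0.24 in females (edgeR adjusted p = 0.11).

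*Ptges*, a prostaglandin E synthase gene, was at 39.8 to 41.1 CPM in control males and 87.2 to 106 CPM in irradiated males, and at 37.2 to 49.7 CPM and 60.3 to 74.2 CPM in the females. Both pairs of groups were apart. The log2 fold change was 1.28 in males (SE 0.0626, edgeR adjusted p = 2.85e-07) and 0.57 in females (SE 0.111, edgeR adjusted p = 0.00779), and the male response was larger by 0.70 (edgeR adjusted p = 0.0155). *Tbxas1*, the thromboxane synthase gene, fell by 1.10 on the log2 scale in males and by 0.62 in females (edgeR adjusted p = 6.14e-05 and 0.0427), and the female call was lost without irradiated replicate 1, 3 or 4 (edgeR adjusted p of 0.102 to 0.114). *Hpgds*, a prostaglandin D synthase gene, fell in females by 0.37 (edgeR adjusted p = 0.0318) and was at 0.14 in males (edgeR adjusted p = 0.272). Its interaction was 0.49 (edgeR adjusted p = 0.0827), which passed in 7 of 16 fits without 1 mouse. *Ptgdr*, a prostaglandin D2 receptor gene, fell in males by 0.91 and in females by 0.71 (edgeR adjusted p = 0.000683 and 0.0604). *Cbr1*, a carbonyl reductase that can reduce prostaglandin E2, rose by 0.47 in males and 0.51 in females (edgeR adjusted p = 0.000571 and 0.00393).

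Downstream of the receptors lie G proteins, the adenylyl cyclases that make cyclic AMP and the PDE4 phosphodiesterases that degrade it. Of 18 such genes tested (*Adcy8*, the 19th of the list, had too few reads), 2 rose and 12 fell in males, and 2 rose and 5 fell in females, beside 29% of all genes higher and 30.5% lower in males and 12.8% higher and 10.6% lower in females. The median log2 fold change was -0.39 in males and -0.11 in females, where that of all genes tested was -0.02 and 0.00. *Adcy1*, an adenylyl cyclase gene, fell by 1.38 in males and by 0.77 in females (edgeR adjusted p = 0.000188 and 0.0224). *Gnaq*, the gene of the Gq protein alpha subunit, fell by 0.61 in males and by 0.37 in females (edgeR adjusted p = 4.96e-06 and 0.0126), while *Gnai3*, of the inhibitory G protein, rose by 0.49 and 0.25 (edgeR adjusted p = 9.78e-05 and 0.0546). *Gnas*, of the stimulatory G protein, fell by 0.40 in males (edgeR adjusted p = 0.00152).

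Of the 18 downstream genes tested, 3 had a lower response in males than in females by the interaction and none a higher one, beside 4.25% and 2.75% of all genes. *Pde4a* fell by 0.66 in males and was at -0.18 in females (interaction -0.49, edgeR adjusted p = 0.0392), a difference that passed with any of the 16 mice left out. *Pde4c*, with only 20 to 94 reads per mouse, fell by 0.91 in males and was at 0.01 in females (interaction -0.94, edgeR adjusted p = 0.0929). *Adcy9* fell by 0.65 in males and by 0.26 in females (interaction -0.40, edgeR adjusted p = 0.0786). The last 2 interactions each passed in 5 of 16 fits without 1 mouse. The female fall of *Adcy9* (edgeR adjusted p = 0.0565) was lost without UVB-irradiated female replicate 1 or 3 or no-UVB female replicate 2, 3 or 4, and reached an edgeR adjusted p of 0.134 at -0.23 without the last of these. Skeletal muscle marker genes also fell in males, where 4 of 4 passed, from a sum of 13590 to 18100 CPM to 8051 to 10340 CPM, and none of 4 passed in females. The part of muscle in the falls of these genes was not tested.

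**Figure D4:**
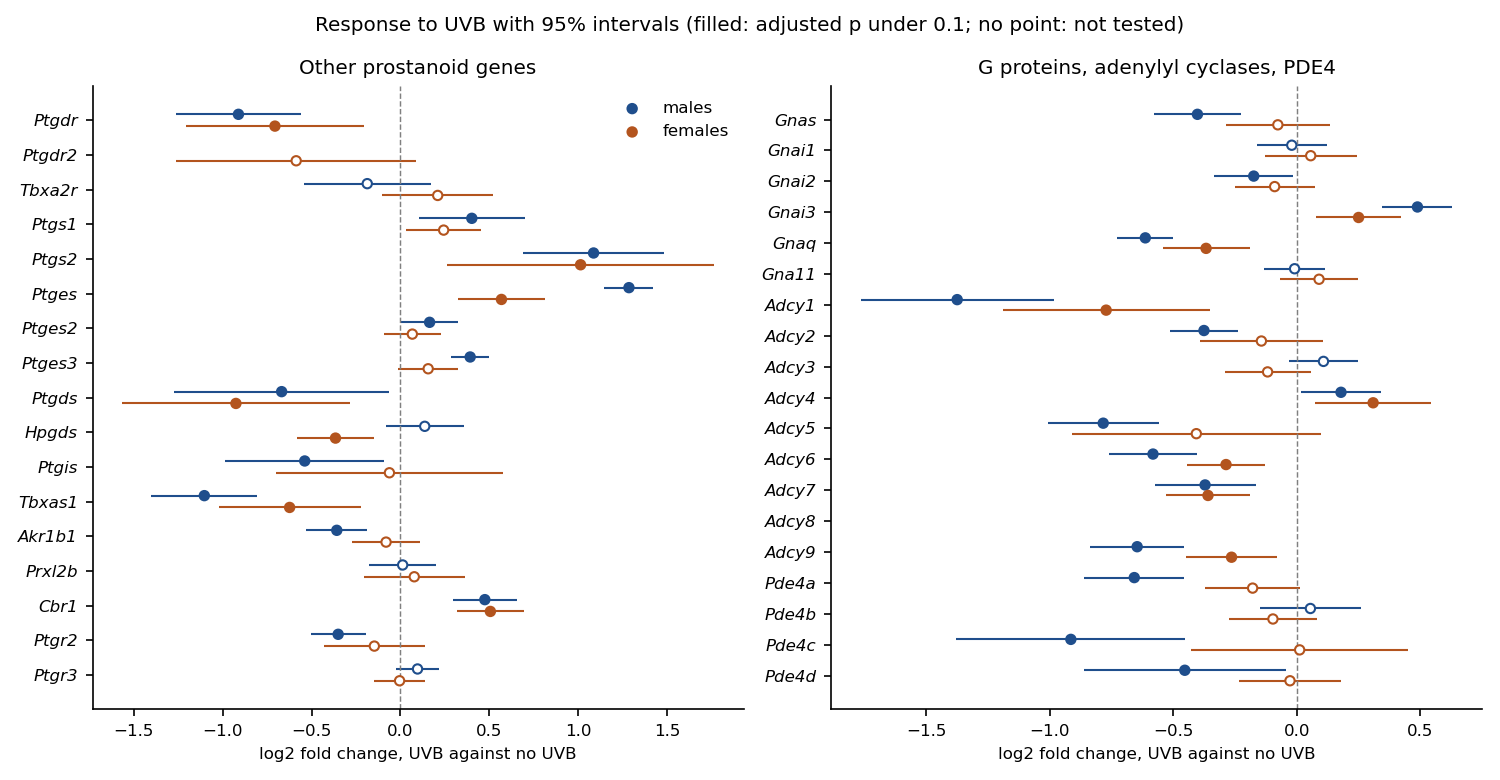
Fitted log2 fold change for UVB against no UVB in males and females, with 95% intervals, of the other prostanoid genes (left) and of G protein, adenylyl cyclase and PDE4 genes (right), filled where the adjusted p of edgeR's quasi-likelihood test was under 0.1. *Ptges* in males, at 1.28, has the highest value and *Adcy1* in males, at -1.38, the lowest.

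For the 5 members that passed in at least 1 sex, the genes with the most similar profile over the 16 mice were sought among 15116 genes with a mean of at least 1 CPM. The measure was the root mean square difference between centred log2 CPM values, so that a smaller value is more alike. *Ptger4* was nearest to *Msh3* (0.08) and *Abr* (0.0927), where the median over all genes was 0.326. *Ptgfr* was nearest to *Abca8a* (0.117) and *Sgce* (0.151), with a median of 0.407, and *Ptger3* to *Gm36860* (0.204) and *Sulf1* (0.207), with a median of 0.463. *Abcc4* was nearest to *Tm7sf3* (0.15) and *Tbc1d8b* (0.151), with a median of 0.437, and *Ptgr1* to *Hat1* (0.0974) and *Sars1* (0.103), with a median of 0.35. These are descriptions of 16 mice that share group and library preparation, and carry no test.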

How the data were processed

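The authors extracted RNA from whole dorsal skin with Trizol, selected poly(A) RNA, made NEBNext Ultra II directional libraries and aligned the reads to GRCm39 with STAR, whose version is not given in the sources used here. The deposited values are whole-number read counts per Ensembl gene in 1 table per mouse, without normalization. The count of the strand reported by the directional kit was used. The other strand held 3.63 to 4.23% of gene reads. Of 55359 identifiers, 54749 were named through GENCODE M39. Replicate libraries were not duplicates of each other (chi-square per degree of freedom 10.4 to 108.8).

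The tests were run with edgeR 4.0.16 under R 4.3.3 (filterByExpr, TMM, robust quasi-likelihood test), with DESeq2 1.42.0 as an alternative. Plots were made with matplotlib 3.10.9 and pandas 2.3.3 in Python 3.11.15. Each sex had its own fit over 8 mice for the response to UVB (16535 genes in males, 16883 in females). A fit over all 16 mice (17406 genes) gave the UVB by sex interaction and the contrasts of males against females. No covariate was used. A gene passed at a Benjamini-Hochberg adjusted p under 0.1 over all genes tested, the threshold of the authors' methods. Those methods add a shrunken fold change past 1, tried here without shrinkage. The SE is the log2 fold change divided by the root of its F statistic. The biological coefficient of variation was 0.107 in males, 0.139 in females and 0.126 overall. Levels per mouse are TMM CPM, and the log2 CPM of each mouse used for profiles had a prior count of 2.

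All 10 members are named, with *Ptgs1*, *Ptgs2*, *Ptges* and each pathway gene past the test for the interaction or with a log2 change past 1 in a sex. *Ptgdr*, *Cbr1*, *Gnaq*, *Gnai3*, *Gnas* and the single marker genes were named after their values were seen. Members and lists were chosen with earlier results of these data known. Alternatives were counts without regard to strand, other scalings, filters, tests and thresholds, the replicate number as a block, all 16 mice in 1 fit, and leaving out each mouse in turn. No library was left out. No protein sequences were used here. An item is not reported here.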

Additional observations from a re-analysis of the deposited data

Results flagged for a closer look

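*Abcc4* was the 1 member whose response to UVB differed between the sexes by a test of the difference itself, with a male response minus female response of -0.37 on the log2 scale by edgeR's quasi-likelihood test. Of the other pathway genes, the same test passed for *Ptges* (0.70), *Hpgds* (0.49), *Adcy9* (-0.40), *Pde4a* (-0.49) and *Pde4c* (-0.94, at 20 to 94 reads per mouse). Of 16 fits of this test without 1 mouse, *Ptges* and *Pde4a* passed in 16 and *Hpgds* in 7. *Adcy9* and *Pde4c* passed in 5 each and *Abcc4* in 4. Of 5 fibroblast markers, *Col1a1*, *Col1a2* and *Lum* also had a lower response in males by this test and *Dcn* and *Pdgfra* did not pass it. The response in males was also lower for 3 of 4 skeletal muscle markers (median -0.74), and it was higher for 3 of 4 stressed keratinocyte markers (median 2.80), 3 of 6 neutrophil markers (median 1.26) and 1 of 5 basal keratinocyte markers. The part of these markers in these differences was not tested.

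In UVB-irradiated females, *Tbxas1* was at 14.2 CPM in replicate 2, apart from the other mice of the group by Dixon's test. It was the 1 such value in 76 groups of 4 mice looked at over 19 genes, where chance gives about 1 in 20 groups.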

How the results depend on the processing

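Of the values of single genes under alternatives that kept all mice, 534 kept their direction and their side of the threshold, 15 no longer passed, 16 came to pass and 12 changed sign. The changes of sign were all in values near 0 or at low counts. With upper quartile scaling *Hpgd* was at -0.00044 in males and -0.0027 for the interaction, *Pde4c* at -0.024 in females and *Ptger1* at -0.071 in males. With counts regardless of strand *Ptger1* was at -0.37 in males and 0.056 for males against females after UVB, and *Ptgfr* at 0.0035 in females. In males *Ptger1* was also at -0.0048 with at least 10 counts in every mouse and at -0.0094 with all 16 mice in 1 fit.

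The count of members past the interaction test (1) became 0 at an adjusted p under 0.05, 0 with a log2 change past 1, 0 with DESeq2's size factors, 0 with every gene of at least 1 count, 2 with DESeq2's Wald test and 2 with at least 10 counts in every mouse. With a log2 change past 1 the counts of members became 0 in males (5), females (3) and both comparisons of the sexes (3 without UVB, 5 after UVB), and those of other prostanoid genes became 3 in males (12) and 1 in females (7). That of other prostanoid genes in females became 4 at an adjusted p under 0.05, and that of members between the sexes after UVB became 3 with every gene of at least 1 count. *Ptger3* in males was at -0.61 and no longer passed with that filter (edgeR adjusted p = 0.162), nor did *Adcy9* in females (0.116) and for the interaction (0.152), *Ptgs2* in females (0.121) or *Pde4c* for the interaction (0.107). *Ptgs1* in females passed with counts regardless of strand (0.0957), and *Ptgr1* in females did not with upper quartile scaling (0.24, edgeR adjusted p = 0.103). *Slco2a1* in females passed under 6 of the alternatives that kept all mice, and *Ptger2* in males under 4.

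With each mouse left out in turn, members past the test numbered 4 to 7 in males, 2 to 4 in females, 0 to 2 for the interaction, 2 to 4 between the sexes without UVB and 2 to 5 after UVB, where the count fell to 2 without UVB-irradiated male replicate 1 and to 3 without UVB-irradiated female replicate 4 or male replicate 2. Other prostanoid genes numbered 10 to 13 in males and 4 to 7 in females, with 4 without UVB-irradiated female replicate 3 or 4 or no-UVB female replicate 1. Signs turned within -0.12 to 0.15 for *Hpgd* (interaction), -0.082 to 0.17 (females) and -0.045 to 0.19 (males), -0.09048 to 0.14 for *Pde4c* (females), -0.098 to 0.43 for *Ptger1* (interaction), -0.30 to 0.23 (males), -0.02047 to 0.31 for *Ptger3* (females), -0.14 to 0.10 for *Ptgfr* (females) and -0.11 to 0.39 for *Ptgs2* (interaction). For males against females without UVB they turned within -0.087 to 0.35 for *Ptger2*, -0.085 to 0.01043 for *Ptger4*, -0.021 to 0.11 for *Ptgr1* and -0.37 to 0.00089 for *Slco2a1*. Where such a change came from was not tested.

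Deviations of same-numbered irradiated and control mice from their group means correlated at -0.07 to 0.02 in males and -0.11 to 0.22 in females. For differently numbered mice the correlations were -0.16 to 0.19 and -0.19 to 0.26. So few values, without a test, cannot decide whether the numbers pair the mice. With the replicate number as a block, members past the interaction test numbered 2, *Slco2a1* in females was at -0.59 and passed (edgeR adjusted p = 0.0379), *Ptger1* in males was at -0.0082, *Ptgfr* in females at 0.012 and *Pde4c* in females at -0.001004. The interactions of *Hpgds* and *Adcy9* no longer passed with the block (edgeR adjusted p = 0.157 and 0.14), that of *Ptgfr* passed (0.074), and so did *Ptger3* for males against females without UVB (0.0636). *Ptger1* had 10 to 50 reads per mouse.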
